A study of Homo sapiens with 12 samples.

Results

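The genes described are those of the EGF receptor family and its ligands: the receptors EGFR, ERBB2, ERBB3 and ERBB4, and the ligands EGF, TGFA, AREG, EREG, HBEGF and BTC. They were taken by gene symbol from both deposited expression tables, and 10 of the 58174 genes in each table are members. The study lowered IGF2BP1, an RNA-binding protein of oncofetal tissue, in Hep-G2 cells, a hepatoblastoma-derived line, and in BE(2)-C cells, a neuroblastoma-derived line. Poly-A RNA was sequenced 72 h after transfection, with 3 libraries per group and 12 in all. Control cells received a control siRNA (siC) and knockdown cells an siRNA pool directed against IGF2BP1 (siI1), the dose being 15 nM for Hep-G2 and 25 nM for BE(2)-C. Each tumour type is represented by a single cultured line, and a difference between the lines cannot be told apart from the difference in siRNA dose. The study's methods call the libraries biological replicates.

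Values are FPKM, fragments scaled to gene length and library size. The length is 1 value per gene, such as 10321 nt for ERBB2 and 1648 nt for AREG. Whether it matches the transcripts expressed in these cells was not tested, so sums, shares and orders of level across genes are approximate. Between 12852988 and 15721210 reads per library fell on genes. The tables of both lines were normalized separately, so levels set across lines are descriptions and every test of siI1 against siC stayed within its own table. Changes are given as log2 of FPKM plus 0.1, siI1 minus siC, with the standard error (SE) and a p-value adjusted over all genes tested in that line. Genes whose FPKM reached 0.1 in 3 or more of a line's 6 libraries were tested, and a gene is said to have risen or fallen where the adjusted p lay under 0.05. The added 0.1 makes the changes of low genes look smaller than they were. With 3 libraries a group, the smallest two-sided p of an exact permutation test is 0.1, so single values rest on the fit over all genes.

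EGF receptors are tyrosine kinases of the cell surface that pair up when a ligand binds and signal through RAS, ERK and PI3 kinase. EGF, TGFA and AREG bind EGFR, whereas HBEGF, EREG and BTC also bind ERBB4, ERBB2 has no known ligand of its own, and ERBB3 has little kinase activity and signals through its partners. Ligands are made as membrane proteins and are released by metalloproteases, and hepatocytes are known for high EGFR, whereas many neural crest cells use ERBB2, ERBB3 and the neuregulins.

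The cell labels were checked against marker genes. In Hep-G2, 10 of 10 hepatic markers reached an FPKM of 1, with summed FPKM of 8667, 8674 and 8602 for siC against 14404, 16318 and 16516 for siI1, and ALB was the most abundant. Of these 10, 7 rose and 2 fell, AFP (-0.59, adjusted p = 0.0029) and TTR (-0.77, adjusted p = 0.0029), where 21.9% of all tested genes rose and 23.0% fell. Among BE(2)-C libraries, 0 of 10 hepatic markers reached an FPKM of 1, their sum was between 0.0119 and 0.237, and AFP, HNF4A, FGB and AHSG had no read. Sympathetic neuroblastoma markers showed the opposite picture. They were detected as 11 of 11 in BE(2)-C, led by MYCN, with summed FPKM of 4028, 3772 and 3797 in siC and 4089, 3979 and 4052 in siI1. In Hep-G2, 1 of 11 was detected, GATA2, and HAND2, CHGA, ISL1 and ELAVL4 had no read.

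Markers of other cell types were mostly low. Of 6 fibroblast markers, 0 were detected in Hep-G2 (summed FPKM 0.657 to 2.04) and 3 in BE(2)-C, led by PDGFRB, where the sum was 29.2, 25.2 and 29.5 in siC and 36.6, 37.8 and 35.8 in siI1. Of the 6 in BE(2)-C, 2 rose, LUM (1.08, adjusted p = 0.00033) and DCN (0.66, adjusted p = 0.00098), while PDGFRB did not pass (-0.10, adjusted p = 0.46). Over all genes tested in BE(2)-C, 13.3% rose and 14.8% fell. Of 5 blood and immune markers, 2 were detected in Hep-G2, where the summed FPKM was 1373, 1379 and 1398 under siC but 167, 182 and 183 under siI1. LYZ had a mean of 1339 in siC and 127 in siI1 and CD74 of 43.9 and 50.1, while PTPRC stayed under the filter. BE(2)-C showed 0 of 5, and PTPRC had no read. Endothelial markers were at 0 of 4 in both lines. What part the marker changes have in the results below was not tested, and in bulk RNA fewer cells of a type and less RNA per cell cannot be told apart.

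Hep-G2 siI1 replicate 1 stood apart from the other libraries of its group. Its reads differed from those of replicates 2 and 3 with a chi-square per degree of freedom of 13.8 and 14.3, against 1.98 between replicates 2 and 3. The Hep-G2 changes of the members and the counts of the pathway lists are therefore also given without it, and the hepatic markers were then 7 higher and 3 lower.

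IGF2BP1 was low in every siI1 library. Hep-G2 siC libraries held it at 48.5, 46.6 and 50.8 FPKM and siI1 libraries at 12.6, 10.7 and 10.7. BE(2)-C libraries showed 21.3, 20.6 and 21.6 in siC and 4.85, 4.75 and 4.87 in siI1. The groups did not overlap in either line, and the change was -2.10 (SE 0.0793, adjusted p = 7.8e-06) in Hep-G2, -2.18 without siI1 replicate 1, and -2.11 (SE 0.0477, adjusted p = 1.5e-05) in BE(2)-C. The IGF2BP1 difference of log2 fold changes, BE(2)-C minus Hep-G2, was -0.02 (adjusted p = 0.91) and turned to 0.02 without Hep-G2 siC replicate 2, 0.06 without Hep-G2 siI1 replicate 1, 0.08 with 1 added in place of 0.1 and 0.17 with libraries scaled to equal sums of FPKM. The paralogs IGF2BP2 and IGF2BP3 did not pass the test in Hep-G2 (-0.14 and -0.11, adjusted p = 0.11 and 0.38), although IGF2BP3 passed it without siI1 replicate 1 (-0.21, adjusted p = 0.024) and the IGF2BP2 log2 fold change in Hep-G2 passed with equal sums (-0.31, adjusted p = 0.017). IGF2BP3 rose by 0.34 (adjusted p = 0.0042) in BE(2)-C, where IGF2BP2 was under the filter.

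Of the members, 7 of 10 could be tested in Hep-G2 and 4 of 10 in BE(2)-C. In Hep-G2, 7 of the 7 tested passed, 2 higher and 5 lower, where 44.8% of all tested genes passed, 21.9% higher and 23.0% lower. Their median change was -1.53, against 0.01 over all tested genes. Of the 4 tested in BE(2)-C, 1 passed, a rise, where 28.2% of all tested genes passed, 13.3% higher and 14.8% lower. This share is near that background, and the median of the 4 was 0.28 against 0.02. Groups did not overlap for 7 of 7 tested members in Hep-G2, where this held for 55.8% of all tested genes, 28.0% with siI1 higher and 27.8% with siI1 lower. They did not overlap for 2 of 4 in BE(2)-C, EGFR and ERBB4, both higher, where it held for 45.0% of all tested genes, 22.6% with siI1 higher and 22.4% with siI1 lower.

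**Figure D1:**
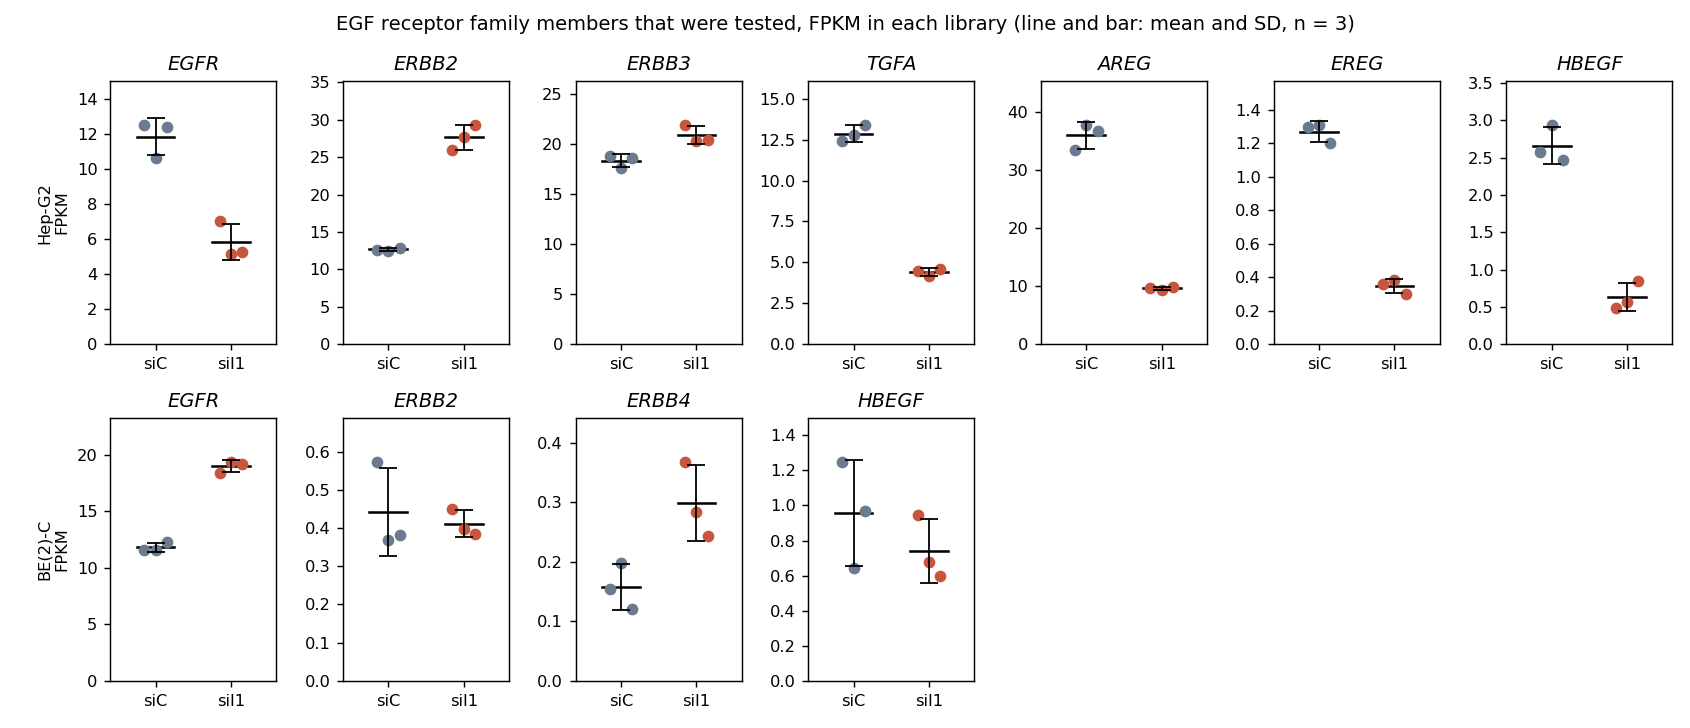
FPKM in each library of the members that were tested, 7 in Hep-G2 (top) and 4 in BE(2)-C (bottom), each on its own linear axis from 0, with a point for each siC or siI1 library and lines at the mean and SD (n = 3). The Hep-G2 siI1 points of EGFR and the ligands lie under those of siC and the ERBB2 and ERBB3 points lie over them, while in BE(2)-C EGFR is the only tested receptor over an FPKM of 1.

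EGFR moved in opposite directions in the lines. Its FPKM in Hep-G2 was 12.5, 10.6 and 12.4 in control libraries, whereas knockdown libraries held 7.03, 5.17 and 5.27. The values in BE(2)-C were 11.6, 11.6 and 12.3 in siC and 18.4, 19.4 and 19.2 in siI1. All siI1 libraries of Hep-G2 were under all siC libraries, and all siI1 libraries of BE(2)-C were over all siC libraries. In Hep-G2 the mean went from 11.8 ± 1.07 to 5.83 ± 1.05 (SD, n = 3), a change of -1.02 (SE 0.134, adjusted p = 0.001) and -1.16 (adjusted p = 0.00018) without siI1 replicate 1, the library with the highest EGFR of its group. The BE(2)-C mean went from 11.8 ± 0.432 to 19.0 ± 0.532 (SD, n = 3), a rise of 0.68 (SE 0.0494, adjusted p = 0.00029). The difference between lines was 1.69 (95% interval 1.36 to 2.02, adjusted p = 8.4e-06), and 1.83 without Hep-G2 siI1 replicate 1. The siC means of both lines were 11.8 on their separately normalized scales.

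In Hep-G2 the receptor without a ligand, ERBB2, rose. It had 12.6, 12.5 and 12.9 FPKM in siC and 25.9, 27.7 and 29.3 in siI1. The groups were far apart, and the mean was 2.18 times higher, a change of 1.12 (SE 0.0591, adjusted p = 2.3e-05), 1.16 without siI1 replicate 1. Values in BE(2)-C were low, at 0.574, 0.370 and 0.381 FPKM in siC and 0.451, 0.398 and 0.384 in siI1, from 49 to 85 reads a library. These groups overlapped, and the change of -0.07 (95% interval -0.62 to 0.48, adjusted p = 0.86) did not pass, turning to 0.10 for the ERBB2 log2 fold change in BE(2)-C without siC replicate 1. The change was lower in BE(2)-C than in Hep-G2 by a difference of -1.19 (SE 0.182, adjusted p = 0.00039).

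ERBB3 was measured at 18.8, 17.6 and 18.6 FPKM under siC in Hep-G2 and 21.9, 20.3 and 20.4 under siI1. The groups did not overlap but lay close together. The rise was 0.18 (SE 0.0555, adjusted p = 0.033), and 0.15 (adjusted p = 0.037) without siI1 replicate 1. Of the ERBB3 log2 fold change in Hep-G2, the call was lost without siC replicate 1 (adjusted p = 0.069), 2 (0.11) or 3 (0.083) and without siI1 replicate 2 (0.059) or 3 (0.064). It was also lost without the mean-variance trend (0.098) and with libraries scaled to equal sums of FPKM (change 0.02, adjusted p = 0.88), and the change was 0.28 with median centring. BE(2)-C libraries had 6, 11 and 12 ERBB3 reads in siC and 3, 6 and 5 in siI1, an FPKM of at most 0.0991 with a 3-read floor of 0.0224 to 0.027, and it was not tested.

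ERBB4, the receptor shared by neuregulins and several EGF ligands, had 0, 0 and 0 reads in the siC libraries of Hep-G2 and 1, 2 and 0 in siI1, where 3 reads, taken as the floor, would be 0.0148 to 0.0172 FPKM. Levels in BE(2)-C were 0.155, 0.198 and 0.121 FPKM in siC and 0.368, 0.283 and 0.243 in siI1, from 22 to 74 reads. These groups did not overlap. The change of 0.62 (95% interval -0.03 to 1.28, adjusted p = 0.14) did not pass. For the ERBB4 log2 fold change in BE(2)-C, it did pass without the trend (adjusted p = 0.049) and when recovered reads were tested with voom weights (0.93, adjusted p = 0.004), and it was 0.16 (adjusted p = 0.13) with 1 added in place of 0.1.

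The summed level of the receptors and the make-up of that sum both differed between siC and siI1 in Hep-G2. Summed FPKM of EGFR, ERBB2, ERBB3 and ERBB4 came to 43.8, 40.7 and 43.9 in control libraries of Hep-G2, against 54.9, 53.1 and 54.9 after knockdown. ERBB2 made up 28.7%, 30.7% and 29.3% of it in siC and 47.2%, 52.1% and 53.2% in siI1. EGFR made up 28.4%, 26.0% and 28.2% in siC and 12.8%, 9.73% and 9.59% in siI1. So the share of ERBB2 was higher and that of EGFR lower in each siI1 library, while that of ERBB3 went from 42.4% to 43.4% in siC to 37.2% to 39.9%. EGFR made up 93.7% to 95.4% of the receptor sum of BE(2)-C in siC and 95.6% to 96.6% in siI1.

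**Figure D2:**
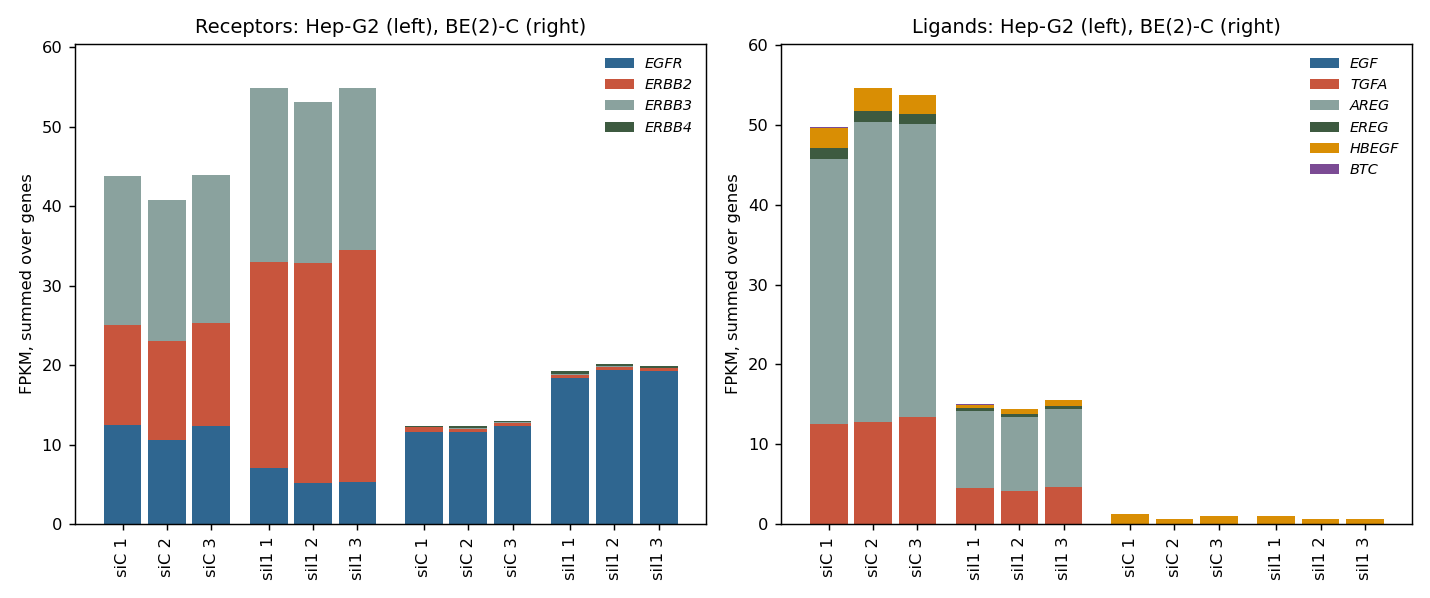
Stacked bars of summed FPKM in each of the 12 libraries, receptors in the left panel and ligands in the right, with Hep-G2 bars left of BE(2)-C bars and each colour a member. The ERBB2 part grows and the EGFR part shrinks in the Hep-G2 siI1 bars, the ligand bars of Hep-G2 siI1 reach 14.4 to 15.6, and the BE(2)-C receptor bars are almost wholly EGFR.

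Promoter sequence is shown for 6 members that passed the test in at least 1 line, since the ligands fell together in Hep-G2 and ERBB2 went the other way. RefSeq windows on GRCh38.p14, from 250 bases before to 50 after a start, matched 9 of the 10 members in 11 windows, and ERBB3 was not matched. EGFR and TGFA have 2 windows each, and the one farthest upstream is given. Both strands were searched for a cAMP response element, spelled TGACGTCA. An AP-1 element was spelled TGANTCA. The GC box was spelled GGGCGG, which is bound by SP-family factors. A TATA element was spelled TATAAA and is a core promoter element. The ETS element was spelled CCGGAAG. Capitals mark the matches, read 5′ to 3′ on the gene's strand, with 0 overlaps between different motifs.
EGFR: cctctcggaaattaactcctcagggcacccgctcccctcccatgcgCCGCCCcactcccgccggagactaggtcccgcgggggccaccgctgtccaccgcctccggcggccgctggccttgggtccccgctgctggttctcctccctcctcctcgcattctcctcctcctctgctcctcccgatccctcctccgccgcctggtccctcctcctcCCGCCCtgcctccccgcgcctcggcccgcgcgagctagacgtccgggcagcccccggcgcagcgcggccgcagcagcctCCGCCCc
ERBB2: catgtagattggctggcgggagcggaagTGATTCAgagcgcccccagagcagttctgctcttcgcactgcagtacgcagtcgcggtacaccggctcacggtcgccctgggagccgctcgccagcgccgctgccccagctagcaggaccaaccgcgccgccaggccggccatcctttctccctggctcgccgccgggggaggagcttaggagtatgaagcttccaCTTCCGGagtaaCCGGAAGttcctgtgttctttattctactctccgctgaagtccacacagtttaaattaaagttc
TGFA: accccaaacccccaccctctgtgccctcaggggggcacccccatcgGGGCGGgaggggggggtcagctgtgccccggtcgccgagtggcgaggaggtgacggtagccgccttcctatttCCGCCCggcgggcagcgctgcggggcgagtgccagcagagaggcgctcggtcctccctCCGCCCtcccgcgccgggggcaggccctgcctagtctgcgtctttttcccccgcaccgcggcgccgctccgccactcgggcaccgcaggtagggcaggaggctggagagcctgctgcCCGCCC
AREG: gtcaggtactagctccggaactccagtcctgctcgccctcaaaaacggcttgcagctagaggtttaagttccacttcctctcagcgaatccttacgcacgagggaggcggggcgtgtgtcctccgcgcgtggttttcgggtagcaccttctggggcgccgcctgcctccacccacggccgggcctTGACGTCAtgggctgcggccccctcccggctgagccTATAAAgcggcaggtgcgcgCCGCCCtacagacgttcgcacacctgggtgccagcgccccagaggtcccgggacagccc
EREG: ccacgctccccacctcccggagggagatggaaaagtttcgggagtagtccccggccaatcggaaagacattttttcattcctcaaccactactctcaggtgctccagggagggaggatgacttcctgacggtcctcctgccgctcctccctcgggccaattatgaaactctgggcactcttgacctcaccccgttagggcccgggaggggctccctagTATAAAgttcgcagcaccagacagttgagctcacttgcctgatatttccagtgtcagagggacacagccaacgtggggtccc
HBEGF: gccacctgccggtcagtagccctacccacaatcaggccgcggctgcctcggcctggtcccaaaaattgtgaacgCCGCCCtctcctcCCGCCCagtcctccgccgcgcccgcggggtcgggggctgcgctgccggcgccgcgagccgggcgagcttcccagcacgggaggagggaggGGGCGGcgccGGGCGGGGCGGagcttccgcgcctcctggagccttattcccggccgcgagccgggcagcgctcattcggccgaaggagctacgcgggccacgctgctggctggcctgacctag
The windows are EGFR chr7:55018767-55019066 (+), ERBB2 chr17:39687844-39688143 (+), TGFA chr2:70553777-70554076 (-), AREG chr4:74444886-74445185 (+), EREG chr4:74364895-74365194 (+) and HBEGF chr5:140346554-140346853 (-).

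Of 35116 promoter windows, 1.85% held the cAMP response element, 7.71% the AP-1 element, 45.0% the GC box, 11.5% the TATA element and 10.3% the ETS element. The AREG window held a cAMP response element 65 bases before the start, a TATA element at 29 and a GC box at 9. EREG held a TATA element at 32 bases. HBEGF held 5 GC boxes, of which a pair shares a base, TGFA 4 and EGFR 3. The second EGFR window, not shown, held AP-1 elements at 232 and 136 bases and TATA elements at 146 and 36, and no GC box. The second TGFA window held no match. ERBB2 held an AP-1 element at 222 bases and 2 ETS elements at 26 and 14, and no GC box. No motif was in all of the ligand windows. The matches describe letters only.

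AREG, a ligand of EGFR, had the highest FPKM of the members in Hep-G2 siC and fell. Its FPKM was 33.3, 37.7 and 36.7 in siC and 9.65, 9.29 and 9.85 in siI1. Every siI1 library was far under every siC library. The mean went from 35.9 ± 2.30 to 9.60 ± 0.282 (SD, n = 3), a change of -1.89 (SE 0.0629, adjusted p = 5e-06), the same without siI1 replicate 1, and 336 of 19436 tested genes had a lower value. TGFA, another EGFR ligand, stood at 12.4, 12.8 and 13.4 FPKM in siC and 4.48, 4.15 and 4.58 in siI1. The groups were again well apart, and TGFA fell by 1.53 (SE 0.0675, adjusted p = 1.3e-05), with a change of -1.54 without that library.

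HBEGF, a ligand that also binds heparan sulfate, had an FPKM of 2.58, 2.94 and 2.47 in Hep-G2 siC and 0.490, 0.569 and 0.843 in siI1, from 20 to 34 reads in siI1. Every siI1 library was lower, and the siI1 mean was 0.238 times that of siC. HBEGF changed by -1.94 (SE 0.206, adjusted p = 0.00039), by -1.80 (adjusted p = 0.00071) without siI1 replicate 1, and the HBEGF log2 fold change in Hep-G2 was -1.17 with 1 added in place of 0.1. EREG, a ligand of EGFR and ERBB4, was at 1.30, 1.31 and 1.2 FPKM in siC and 0.362, 0.384 and 0.301 in siI1. No siI1 library reached the lowest siC library, and EREG changed by -1.61 (SE 0.181, adjusted p = 0.0005), -1.63 without siI1 replicate 1, while the EREG log2 fold change in Hep-G2 was -0.75 with 1 added.

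The 4 tested ligands had a median change of -1.75 in Hep-G2, and 4 of 4 fell with a change of -1 or less, as 6.89% of all tested genes did. The like background in BE(2)-C was 1.67%, with 0 of 1 tested ligand. Their summed FPKM with EGF and BTC was 49.7, 54.7 and 53.8 in siC and between 14.4 and 15.6 in siI1. AREG was 67.0% to 68.8% of the sum in siC and 63.2% to 64.3% in siI1, and TGFA was second. The sum was thus lower in each siI1 library, with AREG, TGFA, HBEGF and EREG in the same order by mean level. EGF had 6, 0 and 4 reads in siC and 1, 4 and 0 in siI1, and BTC 1, 0 and 0 and 1, 0 and 0, so that neither was tested, with 3-read floors of 0.0315 to 0.0366 and 0.0686 to 0.0797 FPKM. These floors cover counting error only.

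HBEGF was the ligand with reads in BE(2)-C, at 1.25, 0.646 and 0.971 FPKM in siC and 0.943, 0.680 and 0.597 in siI1, from 25 to 54 reads. The groups overlapped, and the change of -0.31 (95% interval -0.95 to 0.33, adjusted p = 0.45) did not pass. The HBEGF log2 fold change in BE(2)-C was -0.11 without siC replicate 1, -0.54 without siC replicate 2, -0.48 without siI1 replicate 1, -0.18 without siI1 replicate 3 and -0.16 with 1 added, and did not pass in any of these. The change was higher in BE(2)-C than in Hep-G2 by 1.63 (95% interval 0.86 to 2.40, adjusted p = 0.0034), by 1.49 (adjusted p = 0.0066) without Hep-G2 siI1 replicate 1, and the HBEGF difference of log2 fold changes was 1.01 with 1 added in place of 0.1. TGFA and EREG had 1 read in 1 of the 6 libraries and AREG, EGF and BTC had 0, with floors from 0.0317 to 0.142 FPKM. These 5 ligands were not tested in BE(2)-C, and AREG, TGFA and EREG could not enter a test of the difference.

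Across lines, 3 members were tested and 3 of 3 differed, EGFR and HBEGF higher and ERBB2 lower in BE(2)-C, where 40.2% of 15362 genes differed, 21.7% higher and 18.5% lower. With so few members tested this count carries little weight.

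**Figure D3:**
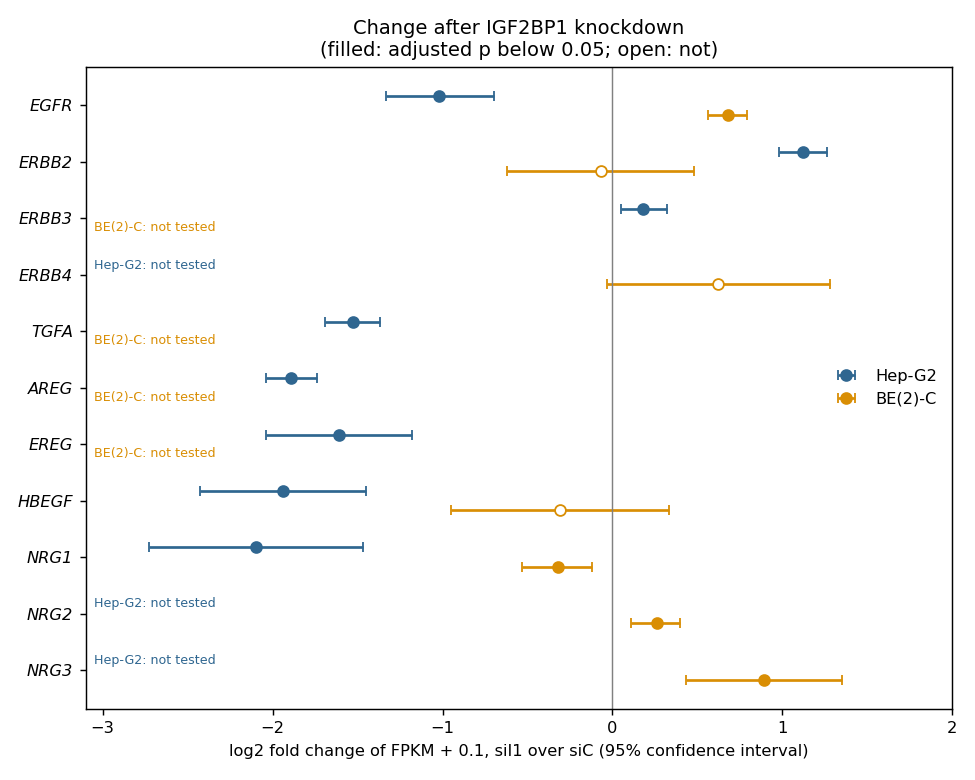
Change of each tested member and of the neuregulins, siI1 minus siC on the log2 scale of FPKM plus 0.1, with 95% intervals, for Hep-G2 and BE(2)-C (3 libraries per group), filled where the adjusted p lay under 0.05. The Hep-G2 point of NRG1 is a description, EGFR lies at -1.02 and 0.68, ERBB2 at 1.12 and -0.07, and the Hep-G2 ligands between -1.94 and -1.53.

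By level, the siC order in Hep-G2 was AREG, ERBB3, TGFA, ERBB2, EGFR, HBEGF and EREG, and only TGFA and ERBB2 overlapped among these neighbours. In siI1 it was ERBB2, ERBB3, AREG, EGFR, TGFA, HBEGF and EREG, with no overlap between neighbours. EGF, BTC and ERBB4 came last and overlapped in both groups. The BE(2)-C order was EGFR, HBEGF, ERBB2, ERBB4 and ERBB3 in siC and in siI1, with no overlap between neighbours, and the other 5 ligands were at or near 0.

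On hg38 with GENCODE v44, EGFR lies at chr7:55019017-55211628 (+), ERBB2 at chr17:39687914-39730426 (+), ERBB3 at chr12:56076799-56103505 (+) and ERBB4 at chr2:211375717-212538841 (-). The ligands lie at chr4:109912883-110013766 (EGF, +), chr2:70447284-70554193 (TGFA, -), chr4:74445136-74455005 (AREG, +), chr4:74365145-74388749 (EREG, +), chr5:140332843-140346603 (HBEGF, -) and chr4:74744759-74794523 (BTC, -). AREG and EREG are neighbours on the same strand, 56387 bp apart. MTHFD2L, near EREG, also fell (-0.79, adjusted p = 0.0032).

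EGFR-AS1 runs opposite to EGFR, and its mean FPKM in Hep-G2 was 2.06 in siC and 3.86 in siI1, a rise of 0.87 (adjusted p = 0.0015), where EGFR fell. PGAP3 and MIEN1 overlap ERBB2 on the opposite strand. PGAP3 rose by 1.01 (adjusted p = 0.00023) from 3.67 to 7.49, and MIEN1 did not pass (-0.18, adjusted p = 0.16). The strand setting used in counting is not stated, so values of overlapping genes are uncertain. Of 9 coding genes within 100000 bp of ERBB2, 5 were tested in Hep-G2 and 4 rose, STARD3 (0.36), TCAP (1.52), PGAP3 (1.01) and GRB7 (0.79), with 0 lower, where 21.9% of all tested genes rose. Near ERBB3, 4 of 12 rose and 3 fell, among them its nearest tested neighbour PA2G4 (-0.41, adjusted p = 0.013). Near HBEGF, 0 of 4 rose and 2 fell, and near EGF 2 of 2 fell, where 23.0% of all tested genes fell.

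The annotated 3′ untranslated regions of canonical transcripts differ in ATTTA pentamers, the core of AU-rich elements. AREG has 4 in 265 nt, TGFA 13 in 3575 nt, EREG 20 in 3941 nt and HBEGF 5 in 1456 nt, which is 15.1, 3.64, 5.07 and 3.43 per 1000 nt. EGFR has 9 in 6011 nt, ERBB3 2 in 1450 nt and ERBB2 0 in 614 nt. The median of 12747 genes tested in Hep-G2 is 1.6 per 1000 nt and 70.5% have at least 1. All 6 ligands lie over that median, with the untested EGF at 2.16 and BTC at 6.26 per 1000 nt, and so does ERBB4 (24 in 7898 nt). EGFR, which fell, lies under it, as do ERBB2 and ERBB3, which rose. HBEGF alone of the 10 has a match to the let-7 seed, CTACCTC, which 10.7% of these genes have.

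Of the neuregulins and EPGN, the other ligands of the family, NRG1 was tested in Hep-G2 and NRG1, NRG2 and NRG3 in BE(2)-C. In Hep-G2 NRG1, a ligand of ERBB3 and ERBB4, was at 0.443, 0.551 and 0.521 FPKM in siC and 0.0392, 0.0303 and 0.0528 in siI1, from 78 to 87 reads down to 5 to 8. It passed the filter only through the 3 siC libraries, so it had to differ, and its change of -2.10 (SE 0.265) is a description. The NRG1 log2 fold change in Hep-G2 was -0.53 with 1 added in place of 0.1, -3.36 with 0.01 and -3.56 with voom weights. NRG1 in BE(2)-C was at 3.06, 3.23 and 3.31 FPKM in siC and 2.58, 2.38 and 2.66 in siI1. These groups did not overlap, and NRG1 fell by 0.32 (adjusted p = 0.032), but the NRG1 log2 fold change in BE(2)-C lost its call with the replicate block (adjusted p = 0.062) and with equal sums (0.051). It was also lost without siC replicate 2 (0.081) or 3 (0.09) and without siI1 replicate 1 (0.076), 2 (0.1) or 3 (0.064). The NRG1 difference of log2 fold changes, BE(2)-C minus Hep-G2, was 1.78, but 0.28 with 1 added, 3.03 with 0.01 and 3.23 with voom, and is likewise a description.

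NRG2 was at 4.76, 4.83 and 4.56 FPKM in BE(2)-C siC and 5.51, 5.70 and 5.74 in siI1, and NRG3 at 0.659, 0.492 and 0.818 and 1.31, 1.30 and 1.24. The siI1 libraries were higher than all siC libraries for both genes. NRG2 rose by 0.26 (adjusted p = 0.022) and NRG3 by 0.89 (adjusted p = 0.015, a change of 0.47 with 1 added). The NRG2 log2 fold change in BE(2)-C lost its call with the replicate block (adjusted p = 0.05 as rounded). That call was also lost without siC replicate 3 (0.063) and without siI1 replicate 1 (0.052), 2 (0.075) or 3 (0.081). The NRG3 log2 fold change in BE(2)-C lost its call without siI1 replicate 1 (0.052) or 2 (0.053). NRG4 and EPGN were under the filter in both lines, with 3 to 8 and 0 to 2 reads in Hep-G2.

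Genes that release or carry the ligands were mixed. ADAM8 passed the filter in Hep-G2 only through the 3 siI1 libraries, so it had to differ and is left out of the main counts. Of the other 11 tested in Hep-G2, 3 rose and 4 fell, median -0.07, where 21.9% of all tested genes rose and 23.0% fell. Of 11 in BE(2)-C, 3 rose and 2 fell, median -0.10, where 13.3% rose and 14.8% fell. The check without Hep-G2 siI1 replicate 1 includes ADAM8. There 5 of 12 rose and 4 fell, against 4 and 4 of the same 12 with all libraries. ADAM17, the main protease that frees EGFR ligands, rose in both, by 0.44 (adjusted p = 0.004) in Hep-G2 and 0.54 (adjusted p = 0.0047) in BE(2)-C, with a difference of 0.10 (adjusted p = 0.54). The ADAM17 difference of log2 fold changes, BE(2)-C minus Hep-G2, was 0.04 to 0.19 without a library. It reached 0.29 among the alternatives and did not pass in any. ADAM19 was at 5.83, 5.61 and 5.95 FPKM in Hep-G2 siC and 1.68, 1.83 and 1.63 in siI1, a fall of 1.70 (adjusted p = 2.2e-05), and its difference was 1.41. ADAM9 was at 46.3, 40.8 and 47.5 and 30.4, 19.6 and 20.1, with siI1 replicate 1 the highest of its group, a change of -0.97 (adjusted p = 0.0038) and -1.17 without it. RHBDF1, a carrier of ADAM17, rose by 0.83 (adjusted p = 0.0015) in Hep-G2, and ADAM12 by 0.51 (adjusted p = 0.0019) in BE(2)-C. The membrane protein CD9 fell in both lines (-1.64 and -2.57, adjusted p = 1.1e-05 and 1.9e-05). Of 10 tested across lines, 5 differed, 3 higher and 2 lower in BE(2)-C, against 40.2% of all genes. Without Hep-G2 siI1 replicate 1 the counts were 3 and 3.

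Adaptors and proximal effectors carry the signal from the receptor. In Hep-G2, 6 of 20 tested rose and 9 fell, median -0.22, against 21.9% and 23.0% of all tested genes, and 6 rose and 11 fell without siI1 replicate 1. In BE(2)-C 1 of 18 rose and 3 fell, median -0.10, near or under the 13.3% and 14.8% of all tested genes. SHC1, the adaptor that joins the receptor to RAS activation, was at 43.9, 42.5 and 42.4 FPKM in Hep-G2 siC and 21.9, 21.6 and 20.7 in siI1, and in BE(2)-C at 72.5, 63.3 and 69.5 and 97.2, 91.9 and 92.8. It was lower in each Hep-G2 siI1 library and higher in each BE(2)-C one, as EGFR was. SHC1 changed by -1.0 (adjusted p = 1.6e-05) and 0.46 (adjusted p = 0.0019), with a difference of 1.46 (adjusted p = 2.3e-07). EPS8 fell by 1.23 (adjusted p = 9.7e-05), CRKL fell by 0.68 (adjusted p = 0.00024) and GRB7, near ERBB2, rose by 0.79 (adjusted p = 0.0003) in Hep-G2. Of 18 tested across lines, 10 differed, against 40.2% of all genes, and 11 did without Hep-G2 siI1 replicate 1.

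Inhibitors and ubiquitin ligases hold receptor signalling in check. In Hep-G2, 2 of 14 tested rose and 8 fell, median -0.54, against 21.9% and 23.0% of all tested genes, and without siI1 replicate 1 the counts were 1 and 10. In BE(2)-C 1 of 11 rose and 1 fell, median -0.01, under the 13.3% and 14.8% of all tested genes. ERRFI1, an inhibitor of the EGFR kinase, was at 59.3, 58.0 and 62.0 FPKM in Hep-G2 siC and 23.6, 19.5 and 21.8 in siI1, with no overlap, and fell by 1.46 (adjusted p = 2.3e-05). PTPRJ fell by 1.61 (adjusted p = 0.00025), the PTPRJ log2 fold change in Hep-G2 being -0.86 with 1 added, and PTPN1 by 0.68 (adjusted p = 0.00014). CBL, a ligase that marks EGFR for degradation, changed by -1.18 (adjusted p = 0.00076) in Hep-G2 and -0.29 (adjusted p = 0.011) in BE(2)-C. Of 11 tested across lines, 8 differed, all of them higher in BE(2)-C, where 40.2% of all genes differed and 21.7% were higher. Without Hep-G2 siI1 replicate 1 it was 7.

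Among genes of receptor endocytosis and sorting, 2 of 11 tested rose and 5 fell in Hep-G2, median -0.19, against 21.9% and 23.0% of all tested genes, and 3 rose and 6 fell without siI1 replicate 1. Of 11 in BE(2)-C 1 rose and 1 fell, median 0.10, under the 13.3% and 14.8% of all tested genes. STAM, which sorts ubiquitinated receptors, was at 32.5, 29.6 and 32.1 FPKM in Hep-G2 siC and 12.9, 13.1 and 12.5 in siI1, with no overlap, and fell by 1.29 (adjusted p = 1.2e-05). EPS15 fell by 0.51 (adjusted p = 0.0023) in Hep-G2, and RAB11FIP1 fell by 0.66 (adjusted p = 0.0086) in BE(2)-C, the RAB11FIP1 log2 fold change in BE(2)-C being -0.42 with 1 added. Of 11 tested across lines, 8 differed, 5 higher and 3 lower in BE(2)-C, also without Hep-G2 siI1 replicate 1. Of all genes 40.2% differed, 21.7% higher and 18.5% lower.

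Genes induced by ERK, which lies downstream of the receptors, fell in Hep-G2: 0 of 15 rose and 14 fell, median -2.33, where 23.0% of all tested genes fell, and the counts were 0 and 14 without siI1 replicate 1. The changes included DUSP6 at -3.49, SPRY4 at -3.44, EGR1 at -3.73 and ETV4 at -2.45. In the other line 6 of 13 rose and 4 fell, median 0.23, where 13.3% and 14.8% of all tested genes did, with SPRY4 at 0.54, EGR1 at -1.12 and FOS at -0.58 (adjusted p = 0.023), and 11 of the 13 differed between lines, all higher in BE(2)-C, where 40.2% of all genes differed and 21.7% were higher. That count was also 11 without Hep-G2 siI1 replicate 1. The FOS log2 fold change in BE(2)-C lost its call without siC replicate 1 (adjusted p = 0.072) or 2 (0.061), without siI1 replicate 2 (0.074) or 3 (0.056), and without the trend (0.058).

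**Figure D4:**
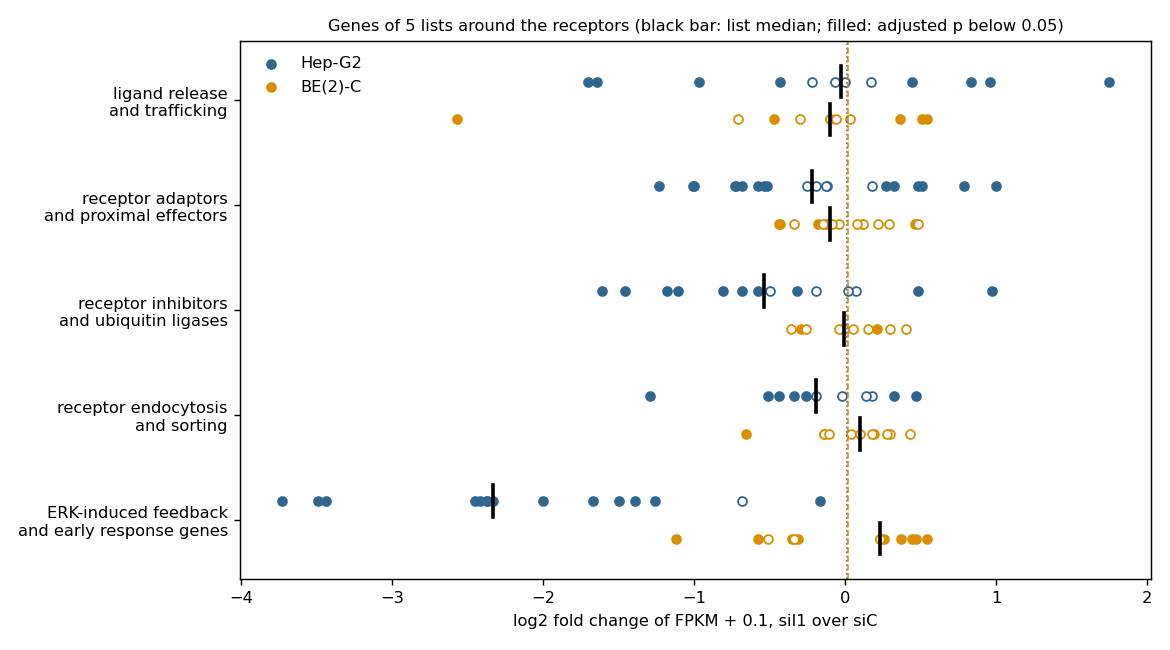
Changes of every tested gene of each list on the log2 scale of FPKM plus 0.1, Hep-G2 above BE(2)-C in each list, filled where the adjusted p lay under 0.05, with black bars at the list medians and dashed or dotted lines at the medians of all tested genes. ADAM8 is included, at 1.75 in Hep-G2. The feedback genes lie lowest in Hep-G2 with a median of -2.33 and around 0.23 in BE(2)-C, and the receptor inhibitors have a median of -0.54 in Hep-G2.

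The genes most like EGFR over the 12 libraries were sought among 11083 coding genes by Pearson correlation of log2 values less the mean of their own table. HIF1A (0.994), ITGB1 (0.991) and ITGA1 (0.991) came first, with Hep-G2 changes of -0.79, -0.66 and -0.99, against 0.47, 0.42 and 0.59 for BE(2)-C. For HBEGF they were SEC61A1 (0.978), TTLL12 (0.974) and GATAD2A (0.971). The points share libraries and a difference between groups, so these are descriptions.

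**Figure D5:**
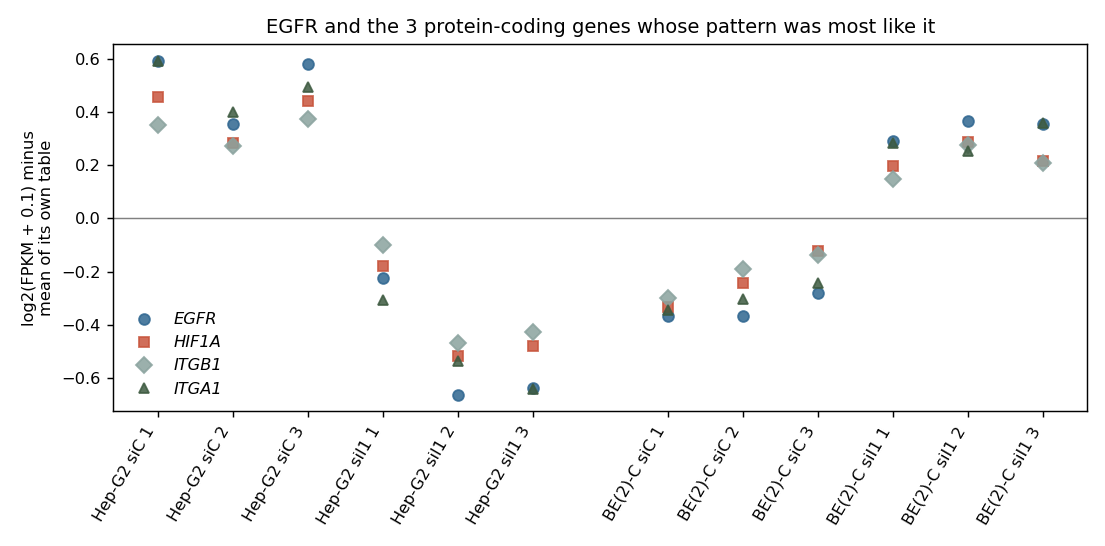
Centred log2 values of EGFR, HIF1A, ITGB1 and ITGA1 in the 12 libraries. The siI1 points lie under the siC points in Hep-G2 and over them in BE(2)-C for all 4 genes.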

How the data were processed

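Per the submitters' processing notes, the authors clipped reads with cutadapt 1.14, aligned them to hg38 with HISAT2 2.1.0, handled alignments with SAMtools 1.5, counted them per Ensembl gene with featureCounts 1.5.3 and tested each line with edgeR 3.30.3 and TMM scaling. The deposited tables hold FPKM per library by the authors, a unit the header does not name and that was read from the values. They also hold the authors' log2 fold changes, p-values and FDR of siI1 against siC, which were not used.

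FPKM times gene length fell on whole reads within 0.01 for 100.0% of values, on library sizes scaled by 0.9661 to 1.023. Genes with FPKM of at least 0.1 in 3 libraries (19436 in Hep-G2, 18656 in BE(2)-C) were fitted on log2(FPKM + 0.1) by limma 3.58.1 (R 4.3.3, trended prior variance, two-sided), with Benjamini-Hochberg adjustment. The change in BE(2)-C minus that in Hep-G2 was fitted over the 12 libraries. Python 3.11.15 served for summaries. Tested on simulated data, this fit recovered the simulated sizes but its share of false calls was well over the threshold of 0.05, mostly of very short genes with less than a read per library. The limits that the fit had to meet there were set after these shares were seen. Calls of such genes, and with them the shares of all genes called, are therefore less certain. Voom weights on reads kept to the threshold in the same simulation, and on the data called more genes than the fit used here. Hep-G2 genes called were 9398 with voom against 8713, and BE(2)-C genes called 6530 with voom against 5252. Genes whose change differs between Hep-G2 and BE(2)-C numbered 6433 with voom against 6180.

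The members, lists, motifs, untranslated region counts and neighbour distance were chosen with earlier results of these data known. Named genes are all members, the IGF2BP genes, the other ligands, and, of each list, up to 4 per line by p with an adjusted p under 0.05 and a change of at least 0.5 in size. Genes near or overlapping members were named after their values were seen. Alternatives covered pseudocount, filter, trend, scaling, voom, threshold, replicate block and leaving out each library. Coordinates are from GENCODE v44, a release other than that of the tables.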

Additional observations from a re-analysis of the deposited data

Results flagged for a closer look

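Each value here is the log2 fold change in BE(2)-C minus that in Hep-G2, and, apart from NRG1, whose value is no test, each passed the test of that difference over all genes tested in both lines. Of 23 named genes with a fitted difference, 19 had an adjusted p under 0.05 and 4 did not (IGF2BP1, ADAM17, EPS15 and FOS). Both the 23 and the 19 include NRG1, whose outcome the filter had fixed, so its pass carries no weight. Most of the named genes were picked for a low p and a change within a line, so these counts are not set against the share of all genes. Among the members these were EGFR (1.69), ERBB2 (-1.19) and HBEGF (1.63). Of the knockdown target's paralogs it was IGF2BP3 (0.45). For NRG1 the value (1.78) is a description, since it passed the filter in Hep-G2 only through its siC libraries and had to differ there. Among genes of ligand release and carriage these were CD9 (-0.93), ADAM19 (1.41) and ADAM9 (0.87), and among adaptors SHC1 (1.46) and CRKL (0.57). Among receptor inhibitors they were ERRFI1 (1.2), PTPN1 (0.64) and CBL (0.89), and among endocytosis genes STAM (1.33) and RAB11FIP1 (-0.63). Among the ERK-induced genes they were DUSP6 (3.15), SPRY4 (3.98), EGR1 (2.61) and ETV4 (2.14). The RAB11FIP1 difference of log2 fold changes, BE(2)-C minus Hep-G2, was -0.40 with 1 added in place of 0.1 and lost its call with equal sums of FPKM (-0.45, adjusted p = 0.052). The EGR1 difference of log2 fold changes, BE(2)-C minus Hep-G2, was 1.69 with 1 added. The EPS15 difference of log2 fold changes, BE(2)-C minus Hep-G2, was 0.37 (adjusted p = 0.13) but passed with equal sums (0.55, adjusted p = 0.045) and without BE(2)-C siC replicate 2 (0.50, adjusted p = 0.034). Of the 23 named genes, EGFR, SHC1 and SPRY4 passed in both lines in opposite directions. Genes of the lists that were not named did so too, among them DUSP4 (-2.42 in Hep-G2, 0.37 in BE(2)-C) and NCK2 (0.48 and -0.43).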

How the results depend on the processing

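Of 1194 alternative values of the 68 changes and differences of single genes, 1146 kept their direction and side of the threshold, and 55 of the 68 did so throughout. The causes of the exceptions were not tested, apart from stricter thresholds and filters, which test or pass fewer genes.

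The Hep-G2 genes called numbered 5721 at an adjusted p under 0.01 in place of 8713, and the BE(2)-C genes called 2614 in place of 5252, or 3414 to 4419 without a library. BE(2)-C members called were 2 without the trend and 2 with voom on recovered reads, in place of 1. Members whose change differs between Hep-G2 and BE(2)-C were 6 without a filter on low values and 1 with a filter at an FPKM of 1, in place of 3. Reversed values were the ERBB2 log2 fold change in BE(2)-C, 0.10 without siC replicate 1 (-0.16 to 0.10 over the libraries left out), the IGF2BP1 difference of log2 fold changes, BE(2)-C minus Hep-G2 (0.08 with a pseudocount of 1, 0.17 with equal sums, -0.06 to 0.06 without a library), and the FOS difference of log2 fold changes, BE(2)-C minus Hep-G2 (-0.42 with a pseudocount of 1, -0.30 to 0.75 without a library), of which main values did not pass.

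Leaving out libraries and voom for the difference were chosen after the data were seen. No pairing of libraries by replicate number was seen. Same-numbered deviations correlated at 0.0625, 0.0351 and -0.00619 for Hep-G2 and at 0.0225, -0.0102 and -0.00283 for BE(2)-C, and only replicate 1 of each line correlated best with its own number. The labels do not say whether same-numbered libraries belong together, and 3 libraries a group are too few to show that there was no pairing. A replicate block gave 8820 Hep-G2 genes called and 4672 BE(2)-C genes called, with 7, 1 and 3 members passing. Genes whose change differs between Hep-G2 and BE(2)-C were 6295 with the block. Equal sums of FPKM gave 3211 Hep-G2 genes higher and 5835 lower, against 4250 and 4463, and in the difference 4532 and 2039, against 3337 and 2843. It moved the median change over all tested genes to -0.146 in Hep-G2, from 0.007, and to 0.209 in the difference, from 0.038. Median centring moved the counts the other way, to 5015 Hep-G2 genes higher and 3693 lower, and to 2964 and 3228 in the difference. The median changes were then 0.088 in Hep-G2 and -0.013 in the difference. Low read numbers limit HBEGF, EREG and, in BE(2)-C, ERBB2 and ERBB4.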
